A study of Mus musculus with 8 samples.

Results

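The levels of 10 genes of the transforming growth factor beta (TGF beta) superfamily were described in mouse heart. They were the TGF beta genes Tgfb1, Tgfb2 and Tgfb3, the growth and differentiation factor genes Gdf15, Gdf10, Gdf11 and Mstn, the activin subunit genes Inhba and Inhbb, and Bmp4. They were chosen by symbol, and every probe whose accession mapped to one of these symbols was taken. That gave 12 of the 39429 probes outside the control spots, and 10 genes, of which 8 are among the 21434 genes and unnamed features tested.

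Ligands of this superfamily are secreted dimers that bind pairs of type I and type II serine/threonine kinase receptors, which phosphorylate Smad proteins that act in the nucleus. TGF betas and activins signal mainly through Smad2 and Smad3, bone morphogenetic proteins through Smad1, Smad5 and Smad9, while GDF15 binds the brain stem receptor GFRAL with the coreceptor RET. In the heart, TGF beta is known for driving fibroblasts to make matrix, and GDF15 for being induced by cell stress.

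The dtg group, named so by the submitters, held 4 hearts of male C57BL6 mice with the genotype merCremer/+ IGFloxP/IGFloxP, in which a Cre recombinase that needs tamoxifen can excise exon 3 of the IGF-1 receptor gene. The 4 control hearts came from male C57BL6 mice that carried Cre without the floxed receptor gene. Both groups therefore shared Cre and the drug: 500 µg of 4OH-tamoxifen in 100 µl of peanut oil was given on 10 days at 8 months of age, and hearts were taken 6 weeks later. The labels do not name the promoter that drives Cre, do not say which part of the heart was taken, and do not state that each sample is its own animal. The p-values therefore measure the spread between these 8 samples, part of which may be technical.

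Each heart was hybridised to its own 1-colour array, and between 59.1% and 71.5% of probes were well above background per array. Levels are given as log2 signal minus the 75th percentile of the same array, so a level of 0 equals that percentile. They rank hearts for 1 probe and do not rank genes, since probes differ in brightness. The ventricular markers (6 of 6) were well above background on all 8 arrays, while 4 of 6 skeletal muscle markers and 3 of 4 lung markers were not kept. Of the skeletal muscle markers, Myh4, Myh1 and Mylpf were not well above background on any array, Actn3 was on 2, and Tnnt3 and Tnni2 were on all 8. Of the lung markers, Sftpc, Sftpb and Sftpa1 were on none and Scgb1a1 was on all 8. The single probe for Igf1r read -0.41, -0.32, 0.06 and 0.30 in dtg hearts 1 to 4, against 0.06, 0.10, 0.26 and 0.92 in control hearts 1 to 4. The groups overlapped (difference -0.43, SE 0.24, limma adjusted p = 0.999999), and since the place of this probe relative to exon 3 is not known here, it does not check the deletion. Pairs of arrays correlated across genes with r between 0.973 (dtg 4 with control 3) and 0.995. A fit without dtg 3, dtg 4 and control 4, a set taken from an earlier look at these data, is given where it changes a direction. The arrays lay on 2 slides, with dtg 1, dtg 4, control 1 and control 2 on slide 1 and dtg 2, dtg 3, control 3 and control 4 on slide 2.

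Of the 10 ligand genes, 8 were well above background on all 8 arrays, and none of these 8 differed between dtg and control hearts after adjustment. Mean levels were higher in dtg hearts for 5 genes (Tgfb1, Tgfb2, Tgfb3, Gdf15 and Bmp4) and lower for 3 (Gdf10, Inhba and Inhbb), while over all features 57.4% of means were higher and 42.6% were lower in dtg hearts. Their median difference was 0.042, against 0.021 over all features. No member passed an adjusted p of 0.05 with limma, as was the case for 0% of all features. At an unadjusted p under 0.05 the count was 0 of 8, against 0.76% of features. The 2 groups overlapped for all 8, while 0.547% of the 21406 features with every value had groups that did not overlap. RNA was taken from whole tissue, so fewer cells of a type and less RNA per cell cannot be told apart in any of these levels.

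**Figure D1:**
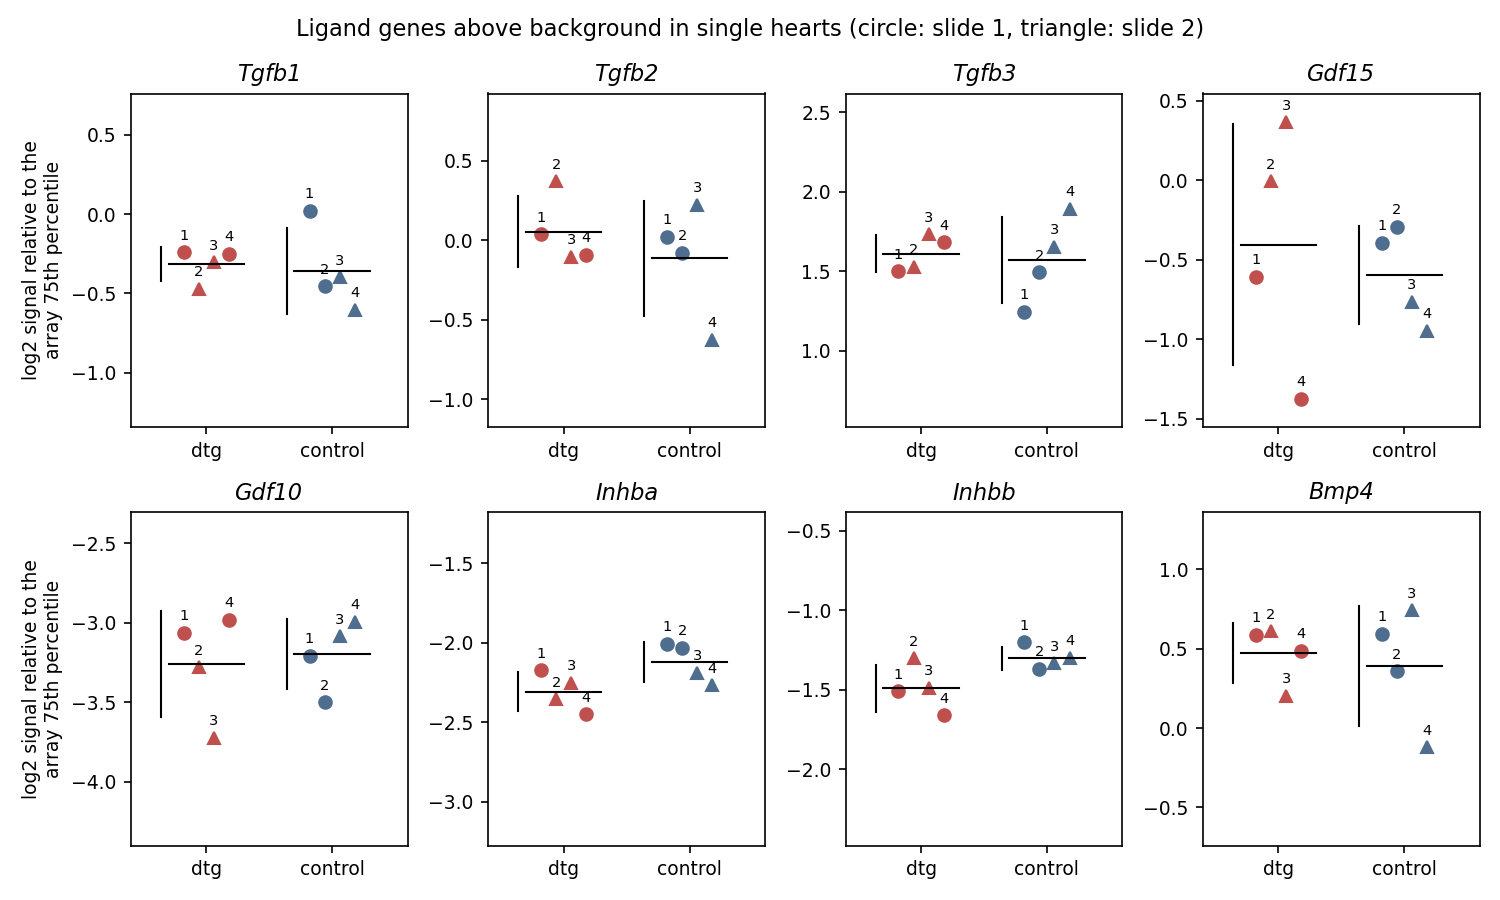
The log2 signal relative to the array's 75th percentile (vertical axes, each spanning the same width) is plotted for the 8 ligand genes above background. Points are single hearts numbered by replicate, circles lie on slide 1 and triangles on slide 2, horizontal bars are group means and vertical bars are SDs (n = 4 each). The dtg hearts of Gdf15 spread from -1.37 to 0.37, the widest spread of any group shown.

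The genes of the 3 TGF betas were all expressed. Tgfb1, the isoform best known for fibrosis, read -0.24, -0.47, -0.30 and -0.25 in dtg hearts 1 to 4, against 0.02, -0.45, -0.40 and -0.60 in control hearts 1 to 4. The highest and the lowest heart were both controls, and all dtg hearts fell between them. Means were -0.32 ± 0.11 in dtg hearts and -0.36 ± 0.27 in control hearts (SD, n = 4 each), a difference of 0.043 (SE 0.15, 95% interval -0.30 to 0.39, limma unadjusted p = 0.780). The direction turned to -0.053 with normexp background correction, to -0.026 with median scaling, to -0.039 without control 4 and to -0.044 without the arrays of dtg 3, dtg 4 and control 4 and slide as a block.

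Tgfb2, an isoform with roles in heart valve formation, had a pair of probes. The probe with the higher signal read 0.04, 0.37, -0.11 and -0.09 in dtg hearts, against 0.02, -0.08, 0.22 and -0.63 in control hearts. The dtg 2 heart was highest and control 4 was lowest, with the other 6 hearts in between and mixed. The difference of 0.17 (SE 0.20, 95% interval -0.30 to 0.63, limma unadjusted p = 0.427) became -0.0014 once control 4 was left out. The second probe was dimmer by 2.57 to 3.34 times on every array and gave a difference of 0.11 (SE 0.20), in the same direction. On that probe control 3 (-1.145) was highest, just above dtg 2 (-1.154), and control 4 (-1.99) was again lowest.

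Tgfb3, an isoform known for its part in palate formation, read 1.50, 1.53, 1.73 and 1.68 in dtg hearts, against 1.25, 1.49, 1.65 and 1.89 in control hearts. Here too the extremes were controls, with control 1 lowest and control 4 highest. The difference was 0.040 (SE 0.15, 95% interval -0.31 to 0.39, limma unadjusted p = 0.798). It turned to -0.068 without control 1, to -0.00070 without dtg 3 and to -0.029 with median scaling.

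Gdf15, the stress-induced ligand of GFRAL, varied most among the 8 genes above background. It read -0.61, -0.0055, 0.37 and -1.37 in dtg hearts 1 to 4, against -0.39, -0.29, -0.76 and -0.95 in control hearts 1 to 4. The dtg group held both the 2 highest hearts and the lowest heart, and the 4 controls lay inside that range. The signal spanned 3.34 times among dtg hearts and 1.58 times among control hearts, and the range over all 8 hearts (1.74 log2) was larger than that of 85.4% of features. Means were -0.40 ± 0.76 in dtg hearts and -0.60 ± 0.31 in control hearts (SD, n = 4 each). The difference of 0.19 (SE 0.36, 95% interval -0.65 to 1.03, limma unadjusted p = 0.610) thus covers changes from a fold of 0.639 up to 2.04. It became -0.064 without dtg 3 and 0.52 without dtg 4.

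Gdf10, also called BMP3B, read -3.06, -3.28, -3.72 and -2.98 in dtg hearts, against -3.21, -3.50, -3.08 and -2.99 in control hearts. The dtg group again held the lowest and the highest heart, though dtg 4 and control 4 were nearly equal at the top. The difference was -0.066 (SE 0.19, 95% interval -0.51 to 0.38, limma unadjusted p = 0.741), and it turned to 0.089 without dtg 3, to 0.0022 without control 4 and to 0.083 without the arrays of dtg 3, dtg 4 and control 4 and slide as a block.

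For these 2 genes the difference between the groups ran opposite ways on the 2 slides. On slide 1 both dtg hearts were below both controls for Gdf15 (difference -0.65), and on slide 2 both were above (difference 1.03). For Gdf10 both dtg hearts were above both controls on slide 1 (difference 0.33) and below them on slide 2 (difference -0.46). With 2 hearts a group, the groups did not overlap for 33.1% of features on slide 1 and for 27.4% on slide 2, and the members among them were Tgfb3, Gdf15, Gdf10, Inhba and Inhbb on slide 1 and Gdf15 and Gdf10 on slide 2. Of the features with every value, 7.25% had groups that did not overlap on either slide and ran in opposite directions. The difference between the slides was 1.68 for Gdf15 (SE 0.39, limma unadjusted p = 0.00414, adjusted p = 0.804) and -0.80 for Gdf10 (SE 0.28, limma unadjusted p = 0.0283, adjusted p = 0.804). At an unadjusted p under 0.05, 4.56% of features showed such a difference between slides, and after adjustment 0.00467% did.

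**Figure D2:**
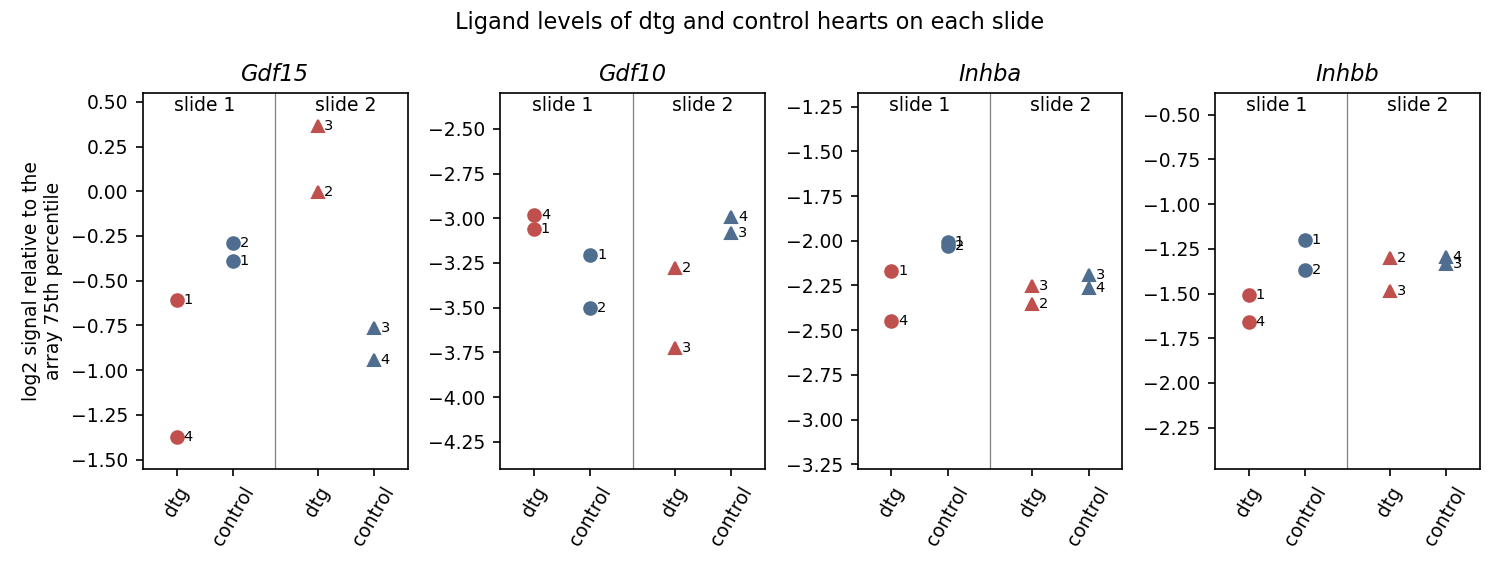
The log2 signal relative to the array's 75th percentile (vertical axes) is plotted for Gdf15, Gdf10, Inhba and Inhbb, with slide 1 left and slide 2 right in each panel. Points are single hearts numbered by replicate, 2 per group and slide. For Gdf15 the dtg hearts lie below the controls on slide 1 and above them on slide 2, and for Gdf10 the order is the other way round.

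The level of atrial muscle genes varied widely between hearts. The mean log2 level of Myl7, Myl4 and Sln, which encode atrial myosin light chains and sarcolipin, was 4.53, 2.13, 2.66 and 5.97 in dtg hearts 1 to 4, against 4.72, 2.06, 5.81 and 6.46 in control hearts 1 to 4. All 6 atrial markers were kept, none was at background in any heart, 1 had a higher and 5 a lower mean in dtg hearts, and their summed signal ran from 6.05 to 8.94 log2 in dtg hearts and from 5.82 to 9.30 log2 in control hearts. The 3 genes of the mean were chosen from these 6 after their values were seen, and the markers did not all run the same way. Kcna5, a potassium channel gene that had been placed in the atrial list, was highest in dtg 2 (-0.16), dtg 3 (-0.09) and control 2 (0.13), the hearts lowest in that mean. The hearts lowest in this signal (dtg 2, dtg 3 and control 2) had the 3 highest Gdf15 levels and the 3 lowest Gdf10 levels. The 2 dtg hearts of slide 2 are among them, while both controls of that slide are not. On slide 1, control 2 is among them and neither dtg heart is. The slide 1 hearts dtg 1 and control 1 had similar atrial signal (4.53 and 4.72) and Gdf15 levels of -0.61 and -0.39. Whether the atrial signal has a part in the opposite differences on the 2 slides was not tested. With the atrial signal as a covariate, chosen after the data were seen, the difference was -0.054 for Gdf15 (SE 0.23) and 0.053 for Gdf10 (SE 0.14). Both had the sign turned, but each difference was smaller than its SE with and without the covariate. This fit of the same hearts is no test of the question above. In that fit the slope per log2 unit of atrial signal was -0.26 for Gdf15 (SE 0.07, limma unadjusted p = 0.00734) and 0.13 for Gdf10 (SE 0.04, limma unadjusted p = 0.0205). Neither slope passed adjustment over all features (limma adjusted p = 0.895 for both). Slopes of the other ligand genes above background had a limma unadjusted p from 0.317 (Inhba) to 0.871 (Bmp4). Gdf15, Gdf10 and the genes of the atrial mean were singled out after these hearts were seen, so these p-values do not test a link.

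Bmp10, a ligand made by atrial muscle, was well above background on 3 dtg and 4 control arrays. It read -3.25, -6.21, -5.29 and -3.67 in dtg hearts, against -4.79, -4.35, -3.76 and -3.67 in control hearts. The lowest levels were those of dtg 2 and dtg 3, which were also low in the atrial signal, but control 2, the lowest in that signal, lay above control 1. The groups overlapped (difference -0.46, SE 0.65). In the fit with the atrial covariate, the slope of Bmp10 was 0.40 per log2 unit (SE 0.15, limma unadjusted p = 0.0340, adjusted p = 0.895).

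**Figure D3:**
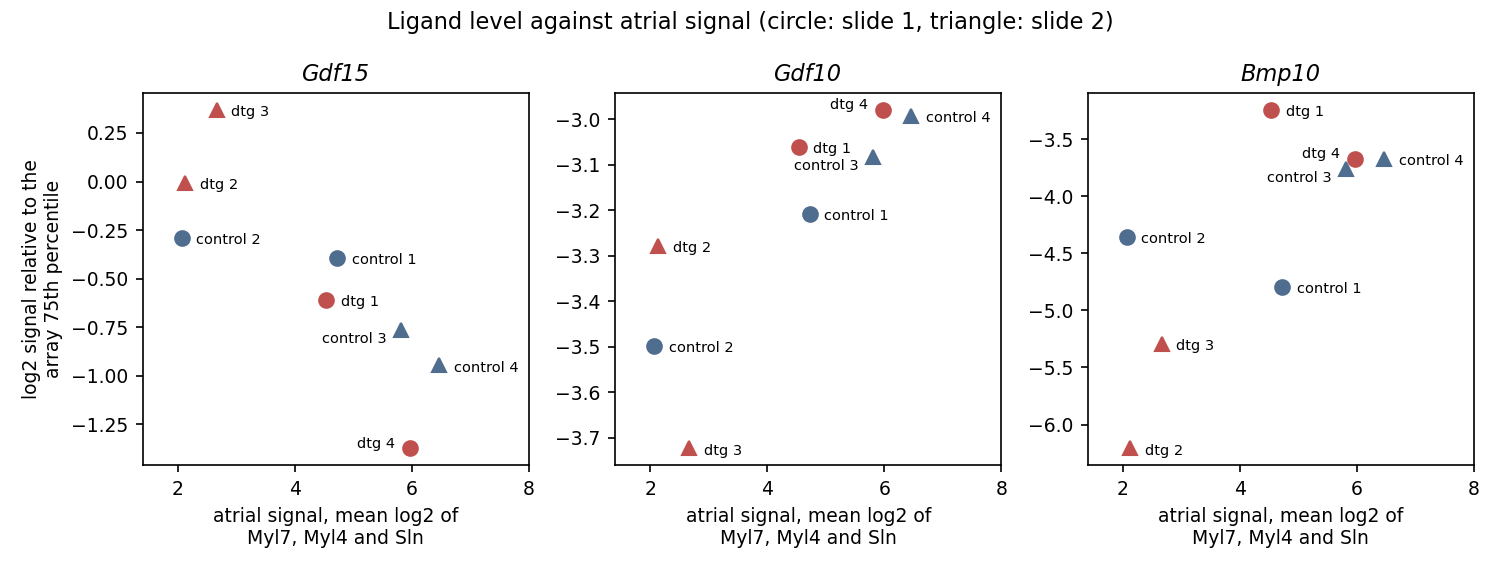
The log2 signal of Gdf15, Gdf10 and Bmp10 relative to the array's 75th percentile (vertical axes) is plotted against the atrial signal, the mean log2 level of Myl7, Myl4 and Sln (horizontal axes), for the 8 single hearts. Circles lie on slide 1 and triangles on slide 2. The hearts dtg 2, dtg 3 and control 2 lie at the low end of the atrial signal, between 2.06 and 2.66, with the highest Gdf15 levels.

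The promoters of Gdf15 and Gdf10, whose levels moved oppositely across hearts, are shown as the 250 bases before the transcript start (RefSeq, GRCm38.p6, written 5′ to 3′ on the strand of the gene). They lie at chr8:70632457-70632706 on the minus strand for Gdf15 and at chr14:33923337-33923586 on the plus strand for Gdf10. Gdf15 has a second window in the table, for a start further into the gene, at chr8:70632096-70632345, and the window of the outermost start is printed. Capitals mark matches on either strand to CAGAC, the core that Smad proteins bind, and GGGCGG, the GC box. A promoter window was found for 9 of the 10 genes, and Tgfb3 had none.
Gdf15: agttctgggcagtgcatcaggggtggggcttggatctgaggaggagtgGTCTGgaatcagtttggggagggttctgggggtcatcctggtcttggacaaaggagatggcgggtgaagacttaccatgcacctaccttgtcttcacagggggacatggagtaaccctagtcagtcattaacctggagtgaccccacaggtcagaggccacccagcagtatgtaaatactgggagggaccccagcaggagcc
Gdf10: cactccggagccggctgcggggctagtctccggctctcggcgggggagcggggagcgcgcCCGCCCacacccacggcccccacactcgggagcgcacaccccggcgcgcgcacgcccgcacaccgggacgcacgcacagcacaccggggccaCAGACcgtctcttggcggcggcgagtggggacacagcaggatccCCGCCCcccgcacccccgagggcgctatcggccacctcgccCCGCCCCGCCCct
The Gdf15 window holds 1 CAGAC match, on the opposite strand and 202 bases before the start, and no GC box. The second Gdf15 window also holds 1, at 116 bases. The Gdf10 window is rich in G and C (78.8%, against a median of 52.4% over 32851 windows) and holds 4 GC boxes, at 8, 13, 54 and 190 bases before the start, the nearest 2 overlapping by 1 base, and a CAGAC at 98 bases. CAGAC occurs in 42.2% of all windows and GGGCGG in 32.7%. The cAMP response element TGACGTCA and the C/EBP-ATF element TGATGNAAN, which stress factors of the ATF family bind, had no match in any of the 10 windows of the ligand genes, against 1.55% and 3.44% of all windows. These matches describe the letters in the windows and are not evidence of binding.

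Inhba and Inhbb encode the beta subunits of activin A and activin B, ligands that signal through Smad2 and Smad3. Inhba read -2.17, -2.36, -2.25 and -2.45 in dtg hearts, against -2.00, -2.03, -2.19 and -2.27 in control hearts. The 2 lowest hearts were dtg and the 2 highest were controls, but dtg 1 and dtg 3 lay among the controls. Means were -2.31 ± 0.12 in dtg hearts and -2.12 ± 0.13 in control hearts (SD, n = 4 each), a difference of -0.18 (SE 0.11, 95% interval -0.44 to 0.074, limma unadjusted p = 0.139).

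Inhbb read -1.51, -1.30, -1.49 and -1.66 in dtg hearts, against -1.20, -1.37, -1.33 and -1.30 in control hearts. The hearts dtg 1, dtg 3 and dtg 4 were below all controls, and dtg 2 lay among them. Means were -1.49 ± 0.15 in dtg hearts and -1.30 ± 0.072 in control hearts (SD, n = 4 each), a difference of -0.19 (SE 0.11, 95% interval -0.44 to 0.062, limma unadjusted p = 0.121). These 2 genes had the smallest p among the members and kept a negative difference in all 23 alternatives, some of which gave the reported value unchanged. The differences lay between -0.29 and -0.075 for Inhba and between -0.30 and -0.078 for Inhbb. Both ends of these ranges are the within-slide values, the larger difference on slide 1 and the smaller on slide 2.

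**Figure D4:**
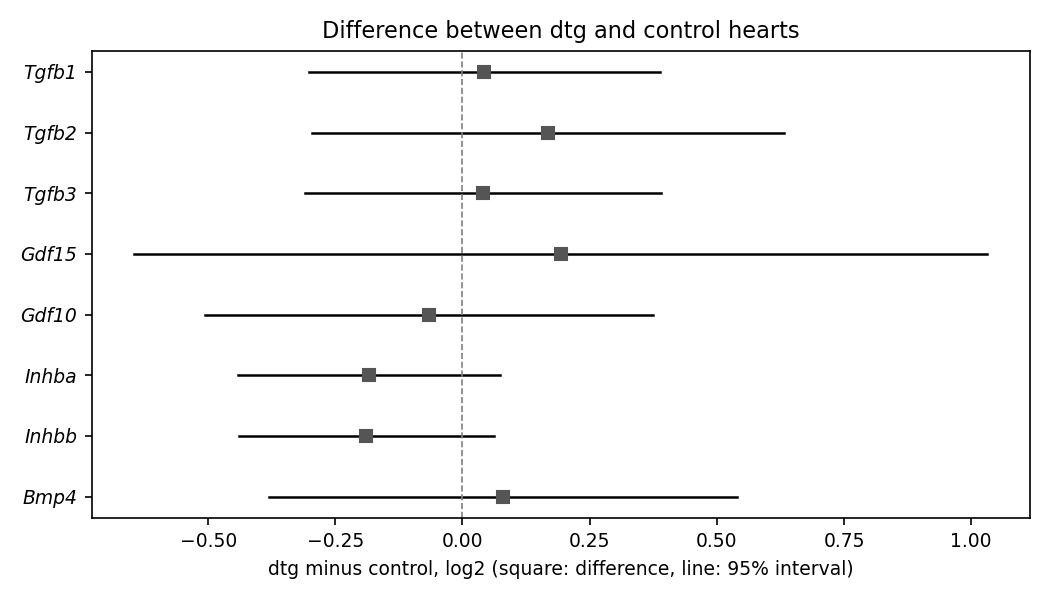
The difference between dtg and control hearts on the log2 scale (horizontal axis, dtg minus control) is plotted for the 8 ligand genes above background, with squares for the fitted difference and lines for the 95% interval from limma (n = 4 each). All 8 intervals include 0, and the widest, that of Gdf15, runs from -0.65 to 1.03.

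The windows of the activin subunit genes are shown because these were the only 2 members whose direction held in every alternative. They lie at chr13:16011601-16011850 on the plus strand for Inhba and at chr1:119422249-119422498 on the minus strand for Inhbb, in the same build. Capitals mark the TATA box core TATAAA and the GC box GGGCGG on either strand.
Inhba: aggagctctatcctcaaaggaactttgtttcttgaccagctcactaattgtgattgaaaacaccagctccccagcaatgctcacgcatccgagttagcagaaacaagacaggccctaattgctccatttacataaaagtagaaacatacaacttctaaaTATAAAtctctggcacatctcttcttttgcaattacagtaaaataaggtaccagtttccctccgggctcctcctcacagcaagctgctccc
Inhbb: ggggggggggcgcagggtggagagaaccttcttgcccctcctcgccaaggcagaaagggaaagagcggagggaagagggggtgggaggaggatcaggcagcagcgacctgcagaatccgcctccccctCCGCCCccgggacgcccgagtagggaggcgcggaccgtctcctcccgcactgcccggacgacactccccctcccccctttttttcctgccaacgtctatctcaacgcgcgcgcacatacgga
Inhba has a TATAAA at 91 bases before the start and 43.2% G and C. Inhbb has no TATAAA, a GC box on the opposite strand at 122 bases and 68% G and C. TATAAA occurs in 12.4% of all windows. The 2 subunit genes thus shared no searched motif in these windows. These too are matches of letters and not evidence of a working TATA box or of binding.

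Bmp4, a bone morphogenetic protein that signals through Smad1, Smad5 and Smad9, had a pair of probes, of which 1 was above background. It read 0.59, 0.61, 0.20 and 0.49 in dtg hearts, against 0.59, 0.36, 0.74 and -0.12 in control hearts. The highest and the lowest heart were controls. The difference was 0.080 (SE 0.20, 95% interval -0.38 to 0.54, limma unadjusted p = 0.700), and it turned to -0.091 without control 4. The second probe was not well above background on any array, so it gives no comparison.

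Gdf11 and Mstn, a closely related pair of ligands of the activin receptors of which myostatin limits skeletal muscle growth, were not well above background in any heart. Gdf11 signal was -6.12, -6.78, -5.65 and -5.68 in dtg hearts, against -6.32, -5.70, -6.63 and -6.42 in control hearts. Mstn signal was -5.88, -6.03, -7.33 and -5.03 in dtg hearts, against -6.19, -6.25, -7.04 and -5.61 in control hearts. With 0 of 4 arrays well above background in each group, no fold is given, and a difference at such levels was not detectable here.

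The patterns most like those of the 3 genes with the widest range among the 8 above background were sought among 14808 named features over the 8 hearts, by the root mean square difference of log2 levels after each gene's own mean was taken off. For Gdf15 the nearest were Zfp820 (0.213), Rrp12 (0.217) and Lpgat1 (0.222), against a spread of Gdf15 about its own mean of 0.511. For Tgfb2 they were Banp (0.0666), Fmo1 (0.0753) and Hook3 (0.0825), against 0.274. For Bmp4 they were Ncapd2 (0.0870), Pphln1 (0.0872) and Card6 (0.0934), against 0.260. Tgfb2, Bmp4 and all 6 of their neighbours were lowest in control 4. Since neighbours were chosen for likeness over these same 8 hearts, sharing that low heart follows from the choice.

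Lists of the genes around these ligands showed no adjusted call either. Of 23 other ligands of the superfamily 15 were kept, with 10 higher and 5 lower in dtg hearts, a median difference of 0.070 and 0 at an unadjusted p under 0.05. The smallest p among them belonged to Gdf5, a ligand of joint formation, which was well above background on only 3 dtg and 3 control arrays. It read -4.85, -5.35, -1.48 and -2.40 in dtg hearts, against -4.51, -3.73, -5.85 and -5.24 in control hearts. The dtg 3 and dtg 4 hearts were high and the groups overlapped (difference 1.31, SE 0.91, limma unadjusted p = 0.184). Its size rests in part on signals near background. Next came Inha, whose alpha subunit pairs with the activin beta subunits to form inhibins, with a difference of 0.18 (SE 0.13), then Bmp6 with -0.24 (SE 0.20) and Gdf7.

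Of 16 receptor genes 13 were kept, with 9 higher and 4 lower, a median of 0.070 and 0 at an unadjusted p under 0.05. Acvr2a, a type II activin receptor, differed by 0.24 (SE 0.17) and Tgfbr2, the type II TGF beta receptor, by 0.089 (SE 0.13). Gfral, the GDF15 receptor, was not well above background on any array. Of 14 genes for TGF beta latency and activation 13 were kept, with 8 higher and 5 lower, a median of 0.024 and 0 at an unadjusted p under 0.05, led by Thbs1, an activator of latent TGF beta (0.15, SE 0.11).

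Of 18 extracellular inhibitors 15 were kept, with 6 higher and 9 lower, a median of -0.027 and 0 at an unadjusted p under 0.05. Fst, the follistatin gene whose product traps activins, had the smallest p of the list. It read -3.87, -3.55, -3.85 and -4.17 in dtg hearts, against -3.68, -3.52, -3.29 and -3.83 in control hearts. The hearts dtg 1, dtg 3 and dtg 4 lay below all controls and dtg 2 among them, the same arrangement as for Inhbb (difference -0.28, SE 0.17, limma unadjusted p = 0.138).

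All 16 Smads and regulators were kept, with 6 higher and 10 lower, a median of -0.019 and 0 at an unadjusted p under 0.05. Smad6, an inhibitory Smad of the BMP branch, came first with 0.23 (SE 0.14). Of 22 target genes 21 were kept and 1 had no probe, with 7 higher and 14 lower and a median of -0.040. Of these, 1 had an unadjusted p under 0.05, against 0.76% of features in either direction and 0.126% that were lower in dtg hearts. It was Acta2, smooth muscle actin and a marker of myofibroblasts (difference -0.37, SE 0.11, limma unadjusted p = 0.00939, adjusted p = 0.999999). Acta2 read 3.55, 3.38, 3.43 and 3.62 in dtg hearts against 3.99, 3.71, 3.89 and 3.85 in control hearts. All dtg hearts were thus below all controls, while groups did not overlap for 0.547% of the features with every value. Acta2 is also in the smooth muscle and pericyte list, where 5 of 6 markers, itself included, were lower in dtg hearts (median -0.096). Over all features 42.6% of means were lower. Lower means were as common in some other lists, with 6 of 6 fibroblast markers (median -0.082) and 5 of 6 endothelial markers (median -0.12). The 2 kept erythroid markers were higher. The part of smooth muscle cells and pericytes in the level of Acta2 was not tested.

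Of 12 genes of the integrated stress response, the pathway known to induce Gdf15 through ATF4 and DDIT3, 11 were kept, with 4 higher and 7 lower, a median of -0.045 and 0 at an unadjusted p under 0.05. Asns differed by -0.24 (SE 0.17) and Ddit3 by 0.18 (SE 0.16). Atf3, a stress-induced factor, read -1.07, -0.64, -0.69 and -1.20 in dtg hearts, against -1.02, -0.27, -1.08 and -0.68 in control hearts. Control 2 was highest, and dtg 2, control 4 and dtg 3 followed close together. The groups overlapped (difference -0.14, SE 0.22). Other genes of the list had other highest hearts, such as control 1 for Asns (0.46), control 4 for Psat1 (-1.56) and dtg 3 for Ddit3 (0.45).

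**Figure D5:**
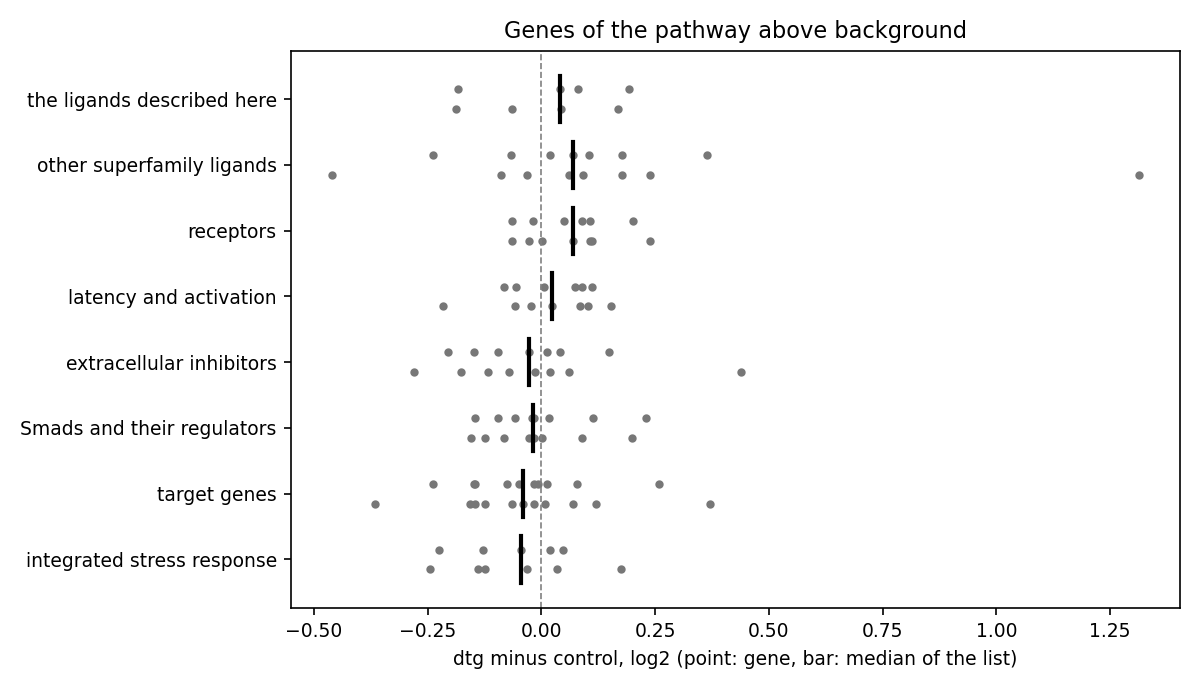
Differences between dtg and control hearts on the log2 scale (horizontal axis, dtg minus control) are plotted for the kept genes of each list, with a point per gene and a bar at the list's median. The medians lie between -0.045 and 0.070, and the farthest point, at 1.31, is Gdf5.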

How the data were processed

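RNA of 4 dtg and 4 control hearts was measured on 1-colour Agilent arrays from 100 ng of RNA each, per the labels' protocols. For each array the authors deposited the scanner output of Agilent Feature Extraction (version 10.7.3.1, as the file headers state), whose processed signal is a linear intensity after subtraction of the local background. A second deposited table holds log2 values. Compared with the scanner output, it was quantile normalized log2 signal centred per probe (r at least 0.999992 per array), with column medians of 0.0051, 0.00689, -0.0322 and -0.00946 for dtg 1 to 4 and -0.0154, -0.0168, 0.0323 and 0.0178 for control 1 to 4. Scale and centring of this table were thus read off its values, its direction is that of a level, and no source used here gives the tool that made it.

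From the processed signal, controls and spots with an outlier mark were removed, log2 was taken, spots of a probe were averaged and each array's 75th percentile was subtracted. That percentile lay between 737.6 and 1027 intensity units, and no ligand spot was saturated. A probe was kept if well above background on at least 4 of 8 arrays (26118 probes), and the probe with the highest mean stood for a gene (21434 features). Probes were named through their accessions in a gene table of GRCm38.p6, used for names alone since the array annotation names mm9. How the background was treated moved some differences, such as that of Tgfb3 to 0.23 with normexp and to 0.034 once spots darker than their background were left out of it, against 0.040 as reported.

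Differences are dtg minus control, fitted without a covariate by limma's lmFit and eBayes (limma 3.58.1, R 4.3.3) and adjusted by Benjamini-Hochberg over all 21434 features at 0.05. Intervals are 95%. Tables were handled with numpy 2.4.6 and pandas 2.3.3. The number of arrays limits the precision, with a median SE of 0.178 log2. Alternatives were other background corrections, scalings, filters and probe rules, the authors' values, slide, replicate number, array weights and leaving out hearts. Normexp (offset 50) took the pixel median of each spot, as the mean was not used here. An atrial covariate and the difference between slides were added after the data were seen.

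The members and lists were chosen with earlier results of these data known. Named genes are all members with every probe, up to 4 genes of each list by smallest unadjusted p, Igf1r, receptors and inhibitors of a named ligand and Bmp10, the 3 features nearest to each of the 3 kept members with the widest range, and markers that moved with a member. Same-numbered dtg and control hearts did not deviate together in every pair, with correlations of 0.54, -0.54, 0.15 and 0.16 for replicates 1 to 4. Replicate numbers were therefore not used to pair them.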

Additional observations from a re-analysis of the deposited data

Results flagged for a closer look

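For 2 ligand genes the difference between dtg and control hearts ran in opposite directions on the 2 slides, with every dtg heart on one side of both controls within each slide. For Gdf15 the difference on slide 2 minus that on slide 1 was 1.68 (limma interaction, SE 0.39, unadjusted p = 0.00414, adjusted p = 0.804). For Gdf10 it was -0.80 (SE 0.28, unadjusted p = 0.0283, adjusted p = 0.804). Opposite directions without overlap on both slides were seen for 7.25% of features. No heart was marked as an outlier in its group for any of the 8 genes above background. The rule was Dixon's ratio, the gap to the nearest heart divided by the range of the group. With 4 hearts a group it marks only extreme gaps, and the largest ratio was 0.722 (Tgfb1, dtg 2). Leaving out control 4 turned the direction of Tgfb1, Tgfb2, Gdf10 and Bmp4. The reported difference of each of these genes was smaller than its SE, so such turns do not single out that heart.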

How the results depend on the processing

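Over 23 alternatives the 8 ligand genes gave 184 differences, of which 164 kept the direction reported and 20 did not. Slide or replicate number as a block and the changed filters on dim probes gave the reported difference unchanged for all 8 genes. The mean of all kept probes did so for every gene but Tgfb2. These agreements do not show how firm a direction is. The authors' values, being quantile normalized, nearly repeated that alternative. No ligand and no other feature passed the adjusted threshold in any alternative (smallest adjusted p of a ligand 0.845), and Inhba and Inhbb always stayed lower in dtg hearts. Normexp turned Tgfb1 to -0.053. Median scaling, which moved the median difference of all features to -0.049, against 0.021 in the values reported, turned Tgfb1 to -0.026 and Tgfb3 to -0.029. Within slide 1, Tgfb1 was -0.028, Gdf15 -0.65 and Gdf10 0.33, and within slide 2 Tgfb3 was -0.14. Array weights turned Gdf10 to 0.13. Without dtg 3, dtg 4 and control 4, and with slide as a block, Tgfb1 was -0.044 and Gdf10 0.083. The atrial covariate, chosen after the data were seen, gave -0.054 for Gdf15 and 0.053 for Gdf10. Leaving out 1 heart at a time gave ranges of -0.039 to 0.17 for Tgfb1, -0.0014 to 0.28 for Tgfb2, -0.068 to 0.15 for Tgfb3, -0.064 to 0.52 for Gdf15, -0.17 to 0.089 for Gdf10 and -0.091 to 0.20 for Bmp4. The cause of these turns was not tested.

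The count of ligands at an unadjusted p under 0.05 was 1 within slide 2 (Gdf15, background 2.33%) and 1 with array weights (Inhba, background 3.55%). Groups that did not overlap were 1 with normexp without dark spots (Inhbb, background 0.477%), 1 with quantile normalization and 1 with the authors' values (Inhba, backgrounds 0.584% and 0.569%), 5 within slide 1 (background 33.1%), 2 within slide 2 (background 27.4%), and between 0 and 1 when 1 heart was left out, with Inhbb the 1 without dtg 2 (background 2.03%). The replicate number as a block, which is not known to pair these hearts, left 0 ligands and 0 features past the adjusted threshold. It gave 276 features at an unadjusted p under 0.05, against 163 without it. That unadjusted count ran from 13 with normexp to 761 with array weights, with 257 for slide as a block and 101 to 333 when 1 heart was left out. With 4 arrays per group, the intervals of the 8 genes did not reach beyond -0.65 and 1.03.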
